A study of Mus musculus with 4 samples.

Results

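Axonemal dynein heavy chains were followed in the mouse testis by taking 10 genes by name from the deposited count table: Dnah1, Dnah2, Dnah3, Dnah5, Dnah6, Dnah8, Dnah10, Dnah11, Dnah12 and Dnah17. The table held 22274 genes. Of the 10 symbols, 7 matched as written and 3 (Dnah6, Dnah10 and Dnah11) matched once case was ignored, and each was checked by its Ensembl identifier. All 10 passed the filter on low counts, so none was left out of the test. Poly(A) RNA of adult testis came from mice labelled Fam170a knockout (KO, 2 libraries) and from wild-type mice (WT, 2 libraries), and the study asked what Fam170a does in spermiogenesis, when round spermatids are remodelled into sperm. For KO replicate 2 the label gives the genotype as Fam171a, but Fam170a had 1 count in each KO library, against 2240 and 3510 counts in WT replicates 1 and 2. The sources used here do not give the strain, the deleted part of the gene or whether each library is a different animal, so p-values measure the spread between these libraries, which may be technical.

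The sperm tail is built around an axoneme, a cylinder of microtubules that bends because dynein motors walk along neighbouring microtubule doublets. Each motor is carried by a very large heavy chain with an ATPase ring, and the motors stand in outer arms, which set beat frequency and power, and inner arms, which shape the bend. In mammals the outer arms of sperm use Dnah8 and Dnah17, while those of motile cilia in airway, brain and oviduct use Dnah5 with Dnah9 or Dnah11. The inner arm heavy chains are largely shared between sperm and cilia. In humans, variants of several sperm-expressed heavy chains are known causes of short or malformed sperm tails.

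Because transcripts of one family were compared, the regions at their starts are shown first. RefSeq windows (build GRCm38.p6, from 250 bases before to 50 bases after each annotated start) were used for 8 of the 10 genes; those of Dnah3 and Dnah6 were not analysed here. Each was searched on both strands for GTTGCTA and GTTGCCA, which are half-sites of the X-box bound by RFX factors of ciliated cells and spermatids, and for CAACGG, a MYB-type site. The motifs were chosen after the sequences had been read, and a match of CAACGG on one strand can share letters with one of GTTGCTA or GTTGCCA on the other. Each 30-base stretch below holds 1 match, or a run of overlapping matches, in capitals, and for Dnah12 the match reads on the other strand. The RefSeq starts of Dnah5, Dnah8 and Dnah12 are not the gene starts given further on from another annotation.
Dnah8 (chr17:30626893-30626922, forward strand): cctttgaactctCAACGGctgagccaccgc
Dnah1 (chr14:31323910-31323939, reverse strand): cccgccccctcgCAACGGactcagtgtcct
Dnah5 (chr15:28203646-28203675, forward strand): ttgctttctcttGTTGCTAaacatgattaa
Dnah10 (chr5:124725068-124725097, forward strand): gcccaggtccCCGTTGCTAgggtcgccgtt
Dnah12 (chr14:26691555-26691584, forward strand): aactgcctcttcTAGCAACcttcacccagc

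GTTGCTA lay in 3 of the 8 windows (Dnah5, Dnah10 and Dnah12), against 3.66% of all 32851 windows in the table. It also lay in 4 of the 5 windows of axonemal heavy chains outside the 10 (Dnah7a, Dnah7b, Dnah7c and Dnah14). GTTGCCA was found in 1 of the 8, Dnah10, against 4.38% of all windows. CAACGG lay in 3 of the 8 (Dnah1, Dnah8 and Dnah10), against 5.12% of all. None of these motifs was in the windows of Dnah2, Dnah11 or Dnah17. These are matches of letters and not measured binding, and each window covers only a short stretch next to 1 annotated start.

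Levels are given as CPM, counts relative to library size after scaling for library composition, and between genes as CPM per kb of coding length. Total counts were 34740160 and 41684437 in KO replicates 1 and 2, and 26029374 and 35494303 in WT replicates 1 and 2. Markers of all germ cell stages listed were detected in every library, from 7 spermatogonial genes, which summed to 66.9 and 63.8 CPM in the KO libraries and 70.2 and 90.7 CPM in the WT libraries, to the more abundant spermatocyte and spermatid genes. Markers of multiciliated epithelium, which could bring cilia-type heavy chains into a testis sample, were mixed: Mcidas and Sntn had 0 counts in all 4 libraries, which allows up to 0.115 CPM in the shallowest, while Gmnc and Ccno lay between 0.467 and 3.82 CPM and the list's other members, Deup1 and Foxj1, were higher. The 6 genes summed to 597 and 620 CPM in the KO libraries and 548 and 492 CPM in the WT libraries, nearly all of it from Deup1 and Foxj1. In bulk tissue, fewer cells of a type and less RNA per cell cannot be told apart.

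No heavy chain passed the test between KO and WT testes. Of the 10, 0 were higher and 0 lower at an adjusted p under 0.05 (edgeR quasi-likelihood test, Benjamini-Hochberg over 15636 genes), where 0.908% of all tested genes were called, 0.454% higher and 0.454% lower. DESeq2 and limma-voom also called 0 of the 10 in either direction, with backgrounds of 8.02% (3.04% higher and 4.98% lower) for DESeq2 and 0.895% (0.454% higher and 0.441% lower) for limma-voom. At an unadjusted p under 0.05, 2 were higher, Dnah3 and Dnah10, and 1 was lower, Dnah2, where 24.6% of all tested genes passed, 11.8% higher and 12.8% lower. Both KO libraries lay above both WT libraries for 3 genes and below them for 1, while 57.3% of all tested genes had no overlap, 29.4% above and 27.9% below. The median log2 fold change of the 10 was 0.054, against 0.0072 over all tested genes. With scaling by total counts, which moved the median of all genes by -0.11, it was -0.057, and its distance above the median of all genes was 0.044, against 0.047 in the fit as reported. It was -0.010 without KO replicate 2 and -0.0022 without WT replicate 1.

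**Figure D1:**
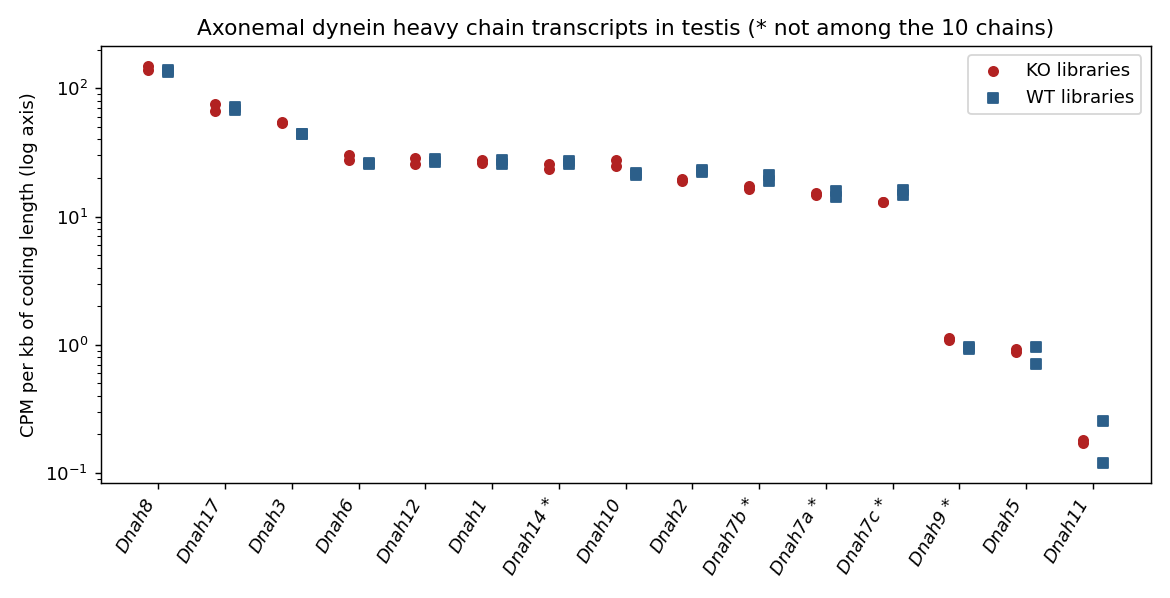
Level of each axonemal heavy chain as CPM per kb of coding length on a log axis, with circles for the 2 KO libraries and squares for the 2 WT libraries, ordered by the mean over 4 libraries; a star marks chains outside the 10. Dnah8 leads at 134 to 150, Dnah17 follows at 67.2 to 75.3 and then Dnah3, the highest inner arm chain, at 44.0 to 54.4, and Dnah5 and Dnah11 lie below 1 in every library.

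The sperm-type outer arm chains were the most abundant of the family. Dnah8 (ENSMUSG00000033826; GRCm38 chromosome 17, 30624354 to 30877365, forward strand) encodes the gamma-type heavy chain of the sperm outer arm. Its coding sequence of 14193 bases lies in a transcript of 93 exons. It stood at 1963 and 2131 CPM in KO replicates 1 and 2, against 1902 and 1982 CPM in WT replicates 1 and 2. The genotypes overlapped, since KO replicate 1 lay below WT replicate 2. The mean was 2047 ± 119 CPM in KO and 1942 ± 56.7 CPM in WT (SD, n = 2 each), a fitted log2 fold change of 0.08 ± 0.08 (SE; edgeR adjusted p = 0.603). The 95% interval of the fold ran from 0.918 to 1.21.

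Dnah17 (ENSMUSG00000033987; chromosome 11, 118021723 to 118130634, reverse strand), the beta-type partner of Dnah8 in the sperm outer arm, was at 903 and 1012 CPM in the KO libraries and 959 and 915 CPM in the WT libraries. The KO libraries enclosed both WT libraries. Its log2 fold change was 0.03 ± 0.09 (edgeR adjusted p = 0.862) with a 95% interval of the fold from 0.878 to 1.19. Per kb, Dnah8 exceeded Dnah17 by 2.06 and 1.99 times in the KO libraries and 1.88 and 2.05 times in the WT libraries, so the proportion of the partners overlapped between genotypes.

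The cilia-type outer arm chains were barely present. Dnah5 (ENSMUSG00000022262; chromosome 15, 28203752 to 28472052, forward strand), the gamma-type chain of cilia and a major gene of human primary ciliary dyskinesia, had 439 and 478 counts in the KO libraries and 254 and 505 counts in the WT libraries, or 12.8 and 12.2 CPM against 9.76 and 13.2 CPM. The KO libraries lay between the WT libraries. Dnah11 (ENSMUSG00000018581; chromosome 12, 117877982 to 118199043, reverse strand), a beta-type chain of the proximal part of cilia, had 79 and 95 counts in the KO libraries and 42 and 131 in the WT libraries, or 2.30 and 2.43 CPM against 1.61 and 3.43 CPM. For Dnah11 the WT libraries differed from each other by 2.12 times, and the KO libraries by 1.05 times. The log2 fold changes were 0.12 ± 0.17 for Dnah5 and -0.11 ± 0.37 for Dnah11 (edgeR adjusted p = 0.718 and 0.885). The 95% intervals of the fold ran from 0.805 to 1.46 for Dnah5 and from 0.488 to 1.75 for Dnah11. Dnah11 also shares 4.07% of its 75-base windows with Cdca7l on the opposite strand, and the part of that gene in its counts was not tested.

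The gap between sperm-type and cilia-type chains was far larger than any difference between genotypes. Per kb of coding length, Dnah8 exceeded Dnah5 by 150 and 171 times in the KO libraries and by 190 and 147 times in the WT libraries. On the log2 scale this ratio averaged 7.32 ± 0.13 in KO and 7.38 ± 0.27 in WT (SD, n = 2 each), and the genotypes overlapped. Dnah17 exceeded Dnah11 by 392 and 418 times in the KO libraries and by 595 and 267 times in the WT libraries, on average 8.66 ± 0.06 in KO and 8.64 ± 0.82 in WT on the log2 scale. The second ratio spread more among WT libraries, where Dnah11 had 42 and 131 counts, than among KO libraries, where it had 79 and 95; the cause was not tested. Of the summed level per kb of the 10 chains, the sperm-type pair made up 53.5% and 54.4% in the KO libraries. In the WT libraries it made up 54.8% and 55.1%. The cilia-type pair made up 0.285% and 0.256% in the KO libraries and 0.220% and 0.320% in the WT libraries. Dnah9, the other beta-type chain of cilia, lies outside the 10 and enters neither the ratios nor these shares. Over the 4 libraries Dnah9 averaged 1.02 CPM per kb, against 0.865 for Dnah5, 0.181 for Dnah11 and 70.5 for Dnah17.

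**Figure D2:**
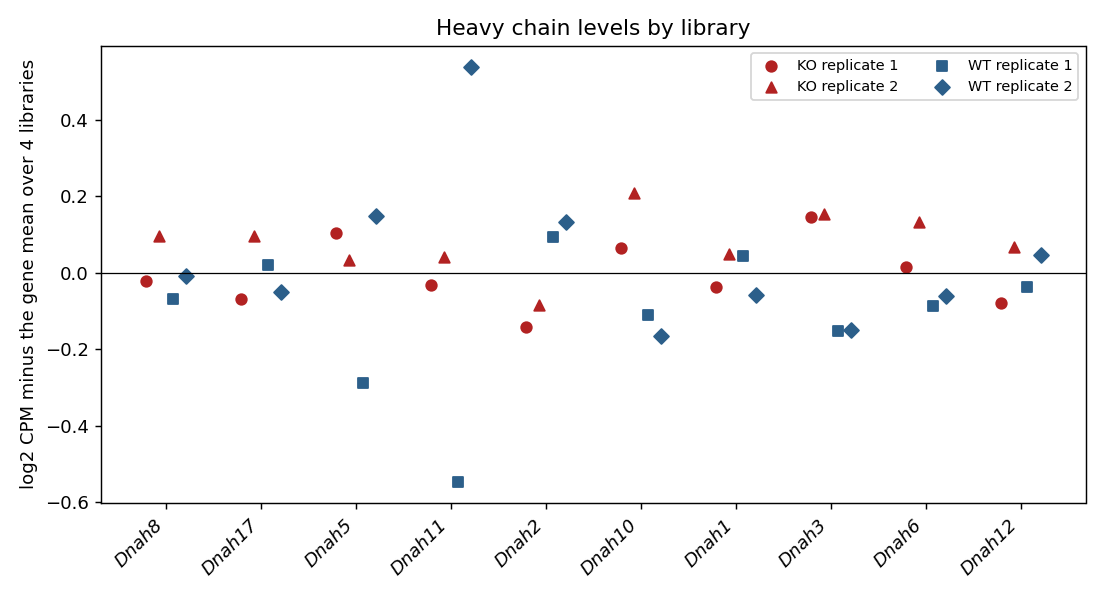
Level of each heavy chain in each library, as log2 CPM minus the gene's mean over the 4 libraries, with red symbols for KO and blue for WT. Dnah3, Dnah10 and Dnah6 have both KO libraries above both WT libraries and Dnah2 has both below, while Dnah5 and Dnah11 show their widest gap between the WT libraries.

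Dnah10 and Dnah2, which are the partner chains of 1 inner arm, leaned in opposite directions. They form the double-headed inner arm, called dynein f in Chlamydomonas, a regulator of the flagellar waveform. Dnah10 (ENSMUSG00000038011; chromosome 5, 124725085 to 124834308, forward strand) was at 342 and 378 CPM in the KO libraries and 303 and 292 CPM in the WT libraries. Both KO libraries were above both WT libraries, and the log2 fold change was 0.28 ± 0.09 (edgeR unadjusted p = 0.0189, adjusted p = 0.139), a fold of 1.21 with a 95% interval of 1.05 to 1.40.

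Dnah2 (ENSMUSG00000005237; chromosome 11, 69420809 to 69549110, reverse strand) was at 254 and 265 CPM in the KO libraries and 299 and 308 CPM in the WT libraries. Both KO libraries were below both WT libraries. The log2 fold change was -0.23 ± 0.08 (edgeR unadjusted p = 0.0259, adjusted p = 0.157), a fold of 0.855 with a 95% interval of 0.751 to 0.974. Neither partner passed after adjustment.

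The ratio of these partners within a library does not depend on how libraries are scaled. Per kb, Dnah10 over Dnah2 was 1.31 and 1.39 in the KO libraries and 0.983 and 0.921 in the WT libraries. It averaged 0.43 ± 0.06 in KO and -0.07 ± 0.07 in WT on the log2 scale (SD, n = 2 each), a difference of 0.50. The genotypes could not overlap in this ratio, because both KO libraries were above WT for Dnah10 and below WT for Dnah2. Its lack of overlap therefore adds nothing to the values of the 2 genes, and 57.3% of all tested genes had no overlap singly. With 2 libraries per genotype the smallest p an exact two-sided permutation test can give is 0.333, so the ratio is given without a test. By comparison the outer arm ratio of Dnah8 over Dnah17 differed by 0.05 between the genotype means on the same scale.

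**Figure D3:**
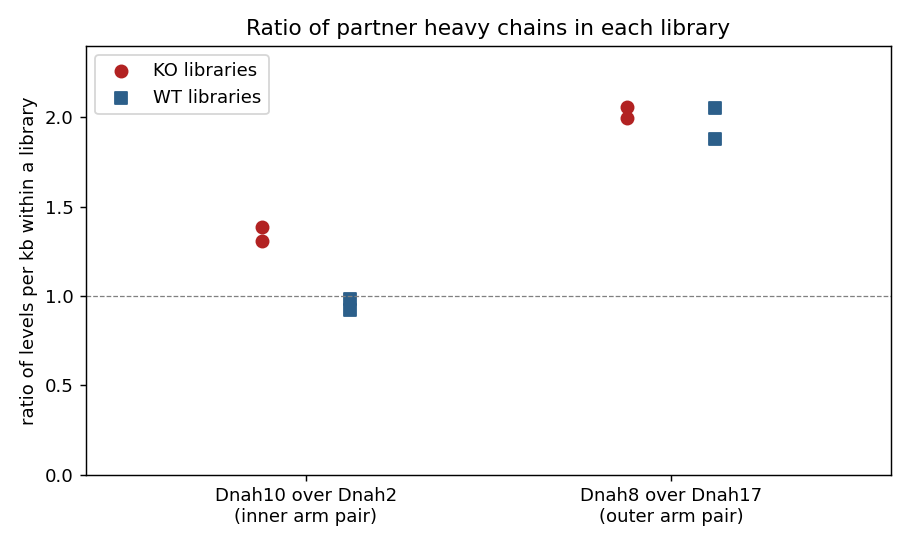
Ratio of the levels per kb of the 2 chains of an arm in each library, with circles for KO and squares for WT, and a dashed line at equal levels. Dnah10 over Dnah2 is 1.31 and 1.39 in KO and 0.983 and 0.921 in WT, while Dnah8 over Dnah17 overlaps, at 1.99 to 2.06 in KO and 1.88 to 2.05 in WT.

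Among the single-headed inner arm chains Dnah3 had the smallest p of the 10, and the other 3 stayed close to WT levels. Dnah3 (ENSMUSG00000052273; chromosome 7, 119922671 to 120095280, reverse strand), an inner arm chain expressed in testis and motile cilia, was at 663 and 666 CPM in the KO libraries and 539 and 540 CPM in the WT libraries. The libraries of a genotype agreed within 1.01 times, and both KO libraries were above both WT libraries. The log2 fold change was 0.30 ± 0.07 (edgeR unadjusted p = 0.00623, adjusted p = 0.106), a fold of 1.23 with a 95% interval of 1.09 to 1.39. DESeq2 gave an adjusted p of 0.0681 and limma-voom one of 0.0909.

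The Dnah3 locus holds the gene Lyrm1 on the opposite strand, and 10.6% of the 75-base windows of the longest Dnah3 transcript also occur, on either strand, in Lyrm1 transcripts. The sources used here do not say whether strand was used in counting. Lyrm1 itself had 1141 and 1338 counts in the KO libraries and 775 and 1116 counts in the WT libraries, against 22719 and 26105 Dnah3 counts in the KO libraries and 14021 and 20637 in the WT libraries. Its part in the Dnah3 difference was not tested.

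Dnah6 (ENSMUSG00000052861; chromosome 6, 73017606 to 73221651, reverse strand), an inner arm chain linked in humans to sperm tail defects and to ciliary disease, was at 345 and 374 CPM in the KO libraries and 321 and 327 CPM in the WT libraries. Both KO libraries were above both WT libraries by a small margin, with a fitted log2 change of 0.15 ± 0.08 (edgeR adjusted p = 0.307). Dnah1 (ENSMUSG00000019027; chromosome 14, 31260375 to 31323896, reverse strand), the inner arm chain whose human variants are the classical cause of multiple morphological abnormalities of the sperm flagellum, was at 333 and 354 CPM in the KO libraries and 353 and 329 CPM in the WT libraries. The Dnah1 libraries interleaved, with a fitted log2 change of 0.01 ± 0.08 (edgeR adjusted p = 0.946) and a 95% interval of the fold from 0.875 to 1.16. Dnah12 (ENSMUSG00000021879; chromosome 14, 26693274 to 26891703, forward strand), another single-headed inner arm chain, was at 305 and 338 CPM in the KO libraries and 314 and 333 CPM in the WT libraries. The Dnah12 libraries of KO enclosed those of WT, with a fitted log2 change of -0.01 ± 0.09 (edgeR adjusted p = 0.961) and an interval of the fold from 0.854 to 1.16.

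**Figure D4:**
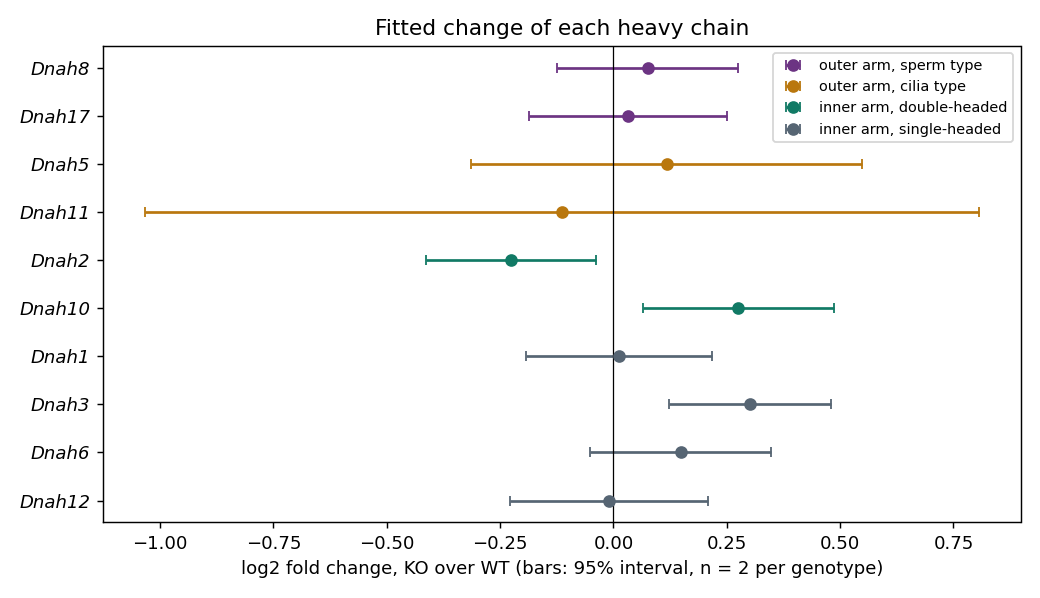
Fitted log2 fold change of each heavy chain, KO over WT, with its 95% interval, coloured by arm. The intervals of Dnah3 and Dnah10 lie above 0 and that of Dnah2 below it before adjustment for 15636 genes, and Dnah11 has the widest interval, from -1.03 to 0.81.

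Whether any of the 10 was called changed with the library left out, as did the number of genes called over the whole table. Without WT replicate 1, Dnah2 was called lower (log2 fold change -0.30, edgeR adjusted p = 0.0189) and Dnah3 higher (0.24, edgeR adjusted p = 0.0499), in a fit that called 21.2% of all tested genes, 12.6% lower and 8.53% higher. That fit takes the lone WT library to vary as the KO libraries do. Leaving out any other library called none of the 10, in fits that called fewer genes over the whole table than the fit without WT replicate 1. The calls among the 10 therefore cannot be told apart from this change over all genes. The summed level per kb of the 10 was 384 and 414 in the KO libraries and 374 and 377 in the WT libraries, so that KO replicate 2 was highest on this scale. As a share of all counts, without scaling for composition, the 10 made up 0.505% and 0.520% in the KO libraries and 0.500% and 0.543% in the WT libraries, and WT replicate 2 was highest.

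Markers of germ cell stages and of somatic cells were summed over their lists in each library. The 9 elongating spermatid markers summed to 6892 and 10194 CPM in the KO libraries and 12953 and 5217 CPM in the WT libraries, and the 6 round spermatid markers to 1637 and 1714 CPM in the KO libraries against 1621 and 1390 CPM in the WT libraries. The 6 meiotic prophase markers summed to 328 and 284 CPM in the KO libraries and 376 and 547 CPM in the WT libraries, with 0 of 6 passing the test and all 6 fold changes negative. The 6 late spermatocyte markers summed to 3925 and 4230 CPM in the KO libraries and 4060 and 3783 CPM in the WT libraries. Of these 6, 0 were called higher and 1, Piwil1, lower, where 0.454% of all tested genes were called in each direction, and 4 of the 6 fold changes were positive around a median of 0.12. The 5 Leydig cell markers summed to 6.42 and 4.90 CPM in the KO libraries and 14.8 and 8.29 CPM in the WT libraries. Sums of the 6 Sertoli cell markers were 3.82 and 5.44 CPM in KO and 10.3 and 5.15 CPM in WT. Those of the 4 peritubular markers were 9.74 and 11.3 CPM in KO and 13.8 and 17.7 CPM in WT. Those of the 4 macrophage markers were 21.5 and 13.0 CPM in KO and 14.1 and 5.34 CPM in WT. None of the markers in these lists was at 0 in every library. Their part in the heavy chain values was not tested.

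Ordered by level per kb over all 4 libraries, Dnah8 averaged 141, Dnah17 70.5 and Dnah3 49.1, and each of these stood apart from the next chain in both genotypes. Dnah6, Dnah12 and Dnah1 averaged 27.5, 27.1 and 26.9. Dnah6 and Dnah12 overlapped in KO, while in WT both libraries of Dnah6 lay below both of Dnah12, and Dnah12 and Dnah1 overlapped in both genotypes. Dnah10 averaged 23.8 and Dnah2 21.0, but only in KO was Dnah10 above Dnah2 in both libraries, and in WT it was below Dnah2 in both. Dnah5 at 0.865 and Dnah11 at 0.181 closed the order, apart from each other in both genotypes. Among 15573 tested coding genes ranked per kb, Dnah8 was at 1283 and Dnah11 at 15236.

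The heavy chains outside the 10 filled the gaps in that order. Dnah14, whose role in the arm is poorly known, averaged 25.6 CPM per kb, against 26.9 for Dnah1. In KO both Dnah14 libraries lay below both of Dnah1, and in WT the chains overlapped. Of the 75-base windows of Dnah14, 1.67% also occur in genes that overlap it. Dnah9, the beta-type chain of the distal part of cilia, averaged 1.02, close to Dnah5. Neither passed the test, with log2 fold changes of -0.09 for Dnah14 and 0.23 for Dnah9 (edgeR adjusted p = 0.539 and 0.277). Dnah9 was at 15.1 and 14.6 CPM in the KO libraries and 12.9 and 12.4 CPM in the WT libraries. Both KO libraries were thus above both WT libraries, as for 29.4% of all tested genes, while for Dnah14 the genotypes overlapped. The inner arm genes Dnah7a, Dnah7b and Dnah7c are recent copies of one another, and 27.8%, 34.3% and 34.5% of the 75-base windows of their longest transcripts also occur in another heavy chain gene, so that their separate counts are uncertain. Their sum was 541 and 544 CPM in the KO libraries and 580 and 645 CPM in the WT libraries. Fitted log2 changes were -0.0021 for Dnah7a, -0.26 for Dnah7b and -0.25 for Dnah7c (edgeR adjusted p = 0.991, 0.165 and 0.157). For Dnah7b and Dnah7c both KO libraries were below both WT libraries, as for Dnah2 and for 27.9% of all tested genes. None of the 10 chains shared such a window with another heavy chain, so that reads of that length or longer would tell them apart; the sources used here give no read length. The cytoplasmic chains did not pass either: Dync1h1, the motor of axonal and vesicle transport, had a log2 fold change of 0.09 and Dync2h1, the motor of retrograde intraflagellar transport, one of -0.06 (edgeR adjusted p = 0.516 and 0.757).

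The remaining dynein arm genes were taken as lists. Of 17 intermediate chain, light chain and docking genes, 2 were higher and 0 lower (edgeR, with 0.454% of all tested genes called higher), and 15 had positive fold changes around a median of 0.21. The genes that rose were Odad2, formerly Armc4, a docking complex protein that anchors outer arms, and Dnai4, formerly Wdr78, an intermediate chain of the same double-headed inner arm that carries Dnah2 and Dnah10. Odad2 was at 164 and 164 CPM in the KO libraries and 91.0 and 92.0 CPM in the WT libraries, a fitted log2 change of 0.84 ± 0.08 (edgeR adjusted p = 0.0184). Dnai4 was at 220 and 235 CPM in the KO libraries and 127 and 122 CPM in the WT libraries, a fitted log2 change of 0.87 ± 0.08 (edgeR adjusted p = 0.0212). For both genes KO and WT libraries were well apart. Both calls ended without KO replicate 1 and without KO replicate 2, in fits that called fewer genes over the whole table. They stayed without either WT replicate, in fits that called more. Without KO replicates 1 and 2 in turn, the fitted log2 changes were 0.85 and 0.84 for Odad2 and 0.92 and 0.82 for Dnai4. Without WT replicates 1 and 2 in turn, they were 0.78 and 0.84 for Odad2 and 0.84 and 0.83 for Dnai4. Dnai4 overlaps Mier1 and the pseudogene Gm12710 on the opposite strand. Odad2 overlaps the pseudogene AC139334.1 and the annotated gene AC139334.3 on its own strand. The part of these overlapping genes in the counts was not tested.

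Other members of that list did not pass. Dnai1, an outer arm intermediate chain, was at 0.35 on the log2 scale of KO over WT, and the docking genes Odad3 and Odad4 at 0.31 and 0.27, with edgeR adjusted p of 0.0931, 0.118 and 0.119. Of 18 listed factors of dynein arm assembly and transport, 17 were found and tested, and Dnaaf6b was not found. Of the 17, 0 passed in either direction by edgeR. At an unadjusted p under 0.05 the same test gave 3 that were higher and 1 that was lower, where 11.8% of all tested genes were higher and 12.8% lower, and the median of the 17 was 0.041. Dnaaf11, formerly Lrrc6, had the smallest p, with a fitted log2 difference of 0.41 (edgeR adjusted p = 0.0928), and Dnaaf4 was at -0.52 (edgeR adjusted p = 0.129).

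Heavy chain mRNAs are among the longest in the cell, so other long transcripts were set beside them. The longest annotated transcripts of the 10 ranged from 12009 bases for Dnah12 to 16685 bases for Dnah8, and 190 other tested genes had one at least as long as that of Dnah12. Those 190 had a median log2 fold change of -0.0031, with 0 called higher and 0 lower by edgeR. Of them 48.9% were positive, against 50.8% of all tested genes and 7 of the 10 heavy chains. Of the 5 axonemal heavy chains outside the 10, 1 was positive and 4 were negative, with a median of -0.095. The mean profile of the 10 over the 4 libraries gives each chain equal weight, whatever its counts. In WT replicates 1 and 2 it was at -0.11 and 0.038 log2 from the gene means, with Dnah11 at -0.55 and 0.54. Dnah5 was at -0.29 and 0.15, so these low-count chains weigh heavily in the profile. The genes closest to the profile, among those with 20 CPM or more, were St13, Tex14, Abca17, Arrdc3 and Pign. Their Euclidean distances were 0.00722 to 0.0226 in log2 CPM. These genes need not follow most of the 10, and with only 4 libraries many genes can lie this close.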

How the data were processed

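Per the labels' protocols, total RNA of adult testes was extracted with Trizol, and poly(A) RNA was captured and made into full-length cDNA libraries by PCR. Tools named in the submitters' processing notes are RSEM, StringTie 1.3.1, HISAT2 2.1.0, Bowtie2 2.2.8 and fastp 0.18.0. Genome build, annotation, read length and strandedness: not given in the sources used here. Each value in the deposited table is a whole-number count per Ensembl gene, with no normalization by the authors visible. The genotype and replicate number in a column's name tied it to its sample. Coordinates and lengths came from GENCODE M21 (GRCm38), by Ensembl identifier.

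Genes were kept by filterByExpr (minimum count 10, minimum total 15), scaled with TMM and tested with edgeR 4.0.16 in R 4.3.3, without covariates beside genotype, at a threshold of 0.05. SE is the fold change divided by the square root of F. Alternatives used DESeq2 1.42.0, limma 3.58.1 and other scalings and filters. Replicates differed beyond sampling noise (chi-square per degree of freedom 8.82 in KO and 37.0 in WT). Floors of 3 counts cover counting error only. The named genes are the 10 chains, the other heavy chains and, of each list, called genes plus those with the smallest p. Members and lists were chosen with earlier results of these data known.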

Additional observations from a re-analysis of the deposited data

How the results depend on the processing

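Dnah2, Dnah3, Dnah6 and Dnah10 kept their direction in all 12 alternatives, with log2 fold changes of -0.34 to -0.19, 0.19 to 0.31, 0.04 to 0.21 and 0.17 to 0.35. The other chains changed sign in at least 1, the cause of which was not tested. With scaling by total counts, values were -0.035 for Dnah8, -0.078 for Dnah17 and -0.095 for Dnah1, the median of the 10 chains was -0.057 and that of other long transcripts -0.11. Dnah1 was at -0.0027 with DESeq2 size factors and -0.0027 with the DESeq2 test. Leaving out 1 library at a time gave -0.012 to 0.14 for Dnah8, -0.055 to 0.11 for Dnah17, -0.14 to 0.35 for Dnah5, -0.59 to 0.54 for Dnah11, -0.047 to 0.059 for Dnah1 and -0.11 to 0.066 for Dnah12. It gave 0 to 1 chains called higher, 0 to 1 called lower, and a median of long transcripts of -0.098 to 0.038, and a median of the 10 chains of -0.010 to 0.12. By transcript length the log2 ratio of Dnah17 over Dnah11 in KO was 8.57. Over all genes, the 71 higher and 71 lower calls became 32 and 50 with total counts, 171 and 280 without a filter, 383 and 628 with DESeq2, 11 and 7 at a threshold of 0.01, and 13 to 1374 and 8 to 2034 without 1 library. The replicate block gave 6 and 3, with 0 of the 10 chains called, and adjusted p of 0.156 for Odad2 and 0.159 for Dnai4 (edgeR). Deviations of same-numbered libraries correlated at -0.109 across genes, so the numbers were not taken as pairs. A crossed replicate block, chosen after seeing the data, gave 298 and 604, again with 0 of the 10. Dnah11, with 42 to 131 counts per library, had the widest 95% interval of the fold among the 10, from 0.488 to 1.75.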
